A study of Homo sapiens with 24 samples.

Results

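Promoters that carried both H3K4me3 and H3K27ac in every library were examined. They were selected on the deposited peak lists: a protein-coding gene was a member if windows of 1000 bp on each side of its transcription start sites (TSSs) overlapped an H3K4me3 peak in all 6 H3K4me3 lists and an H3K27ac peak in all 6 H3K27ac lists. Of 20144 protein-coding genes of GENCODE in its hg19 version, 3879 were members (19.3%). Among the 13923 genes with H3K4me3 in all 6 lists, 27.9% were members.

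The lists came from ChIP-seq of PANC-1 cells, a line established from a human pancreatic ductal carcinoma, with 2 libraries for each modification and group. The siControl cells received a control siRNA and no TGFβ, the siControl+TGFβ cells the control siRNA and TGFβ at 10 ng/ml for 48 h, and the siPHF13+TGFβ cells an siRNA against PHF13 with the same TGFβ treatment. All groups share the single cell line and transfection with an siRNA, and a group with the PHF13 siRNA but without TGFβ was not analysed here. The labels do not say whether the 2 libraries of a group came from separate cultures, so every p-value measures only the spread between these libraries. Groups are those of the labels, although the study's short code for siControl+TGFβ stands in the peak names of the lists labelled siPHF13+TGFβ, and another code in those labelled siControl+TGFβ. An exchange of these groups would leave the members as they are, because the rule treats the 6 libraries alike, but would exchange the values given for the 2 groups.

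Trimethylation of histone H3 at lysine 4 (H3K4me3) marks the nucleosomes around active and poised promoters, and acetylation at lysine 27 (H3K27ac) marks those promoters and enhancers that are in use. Trimethylation of the same lysine 27 (H3K27me3) is deposited by the Polycomb complex PRC2 and marks repressed genes, and a single lysine cannot carry both the acetyl and the methyl groups. PHF13 is a PHD finger protein that binds H3K4me3.

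Promoter sequences are shown for members from different roles, because the sequence around the start site was not used to choose them and differed between acetylated and never acetylated promoters. Each runs 5′ to 3′ on the strand of the gene from 150 bases before the canonical TSS through its first 25 transcribed bases, in GRCh37 (hg19) coordinates, and overlaps annotated exons by at most 30 bases. Capitals mark exact matches, on either strand, to motifs of promoter-binding factors: CCGGAA (ETS family), GGGCGG (SP/KLF family), CCAAT (NF-Y), TATAAA (core of TATA boxes), CACGTG (E-box), AAGATGGC (YY1), GCATGCGC (NRF1), TGACGTCA (CRE), TGANTCA (AP-1) and ACTACAA (part of the ZNF143 element). Adjacent or overlapping matches are joined in a single run of capitals. A match is a description of the letters and not a mapped binding site.
Protein folding and protein degradation, with matches to ETS, NRF1 and SP/KLF in the first and SP/KLF in the second:
HSP90AA1 (chr14:102553357-102553531, minus strand): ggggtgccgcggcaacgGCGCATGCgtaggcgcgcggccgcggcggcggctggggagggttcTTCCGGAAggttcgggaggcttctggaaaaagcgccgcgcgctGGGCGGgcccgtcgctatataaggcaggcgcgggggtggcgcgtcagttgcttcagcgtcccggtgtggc
PSMC4 (chr19:40476922-40477096, plus strand): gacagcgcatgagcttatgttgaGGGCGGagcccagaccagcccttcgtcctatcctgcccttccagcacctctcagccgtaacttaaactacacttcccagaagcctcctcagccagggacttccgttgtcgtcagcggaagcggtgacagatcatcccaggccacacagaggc
Translation, with an ETS match within 25 bases of the TSS in each, here for a cytosolic ribosomal protein, a mitochondrial ribosomal protein and the valyl-tRNA synthetase:
RPS16 (chr19:39926565-39926739, minus strand): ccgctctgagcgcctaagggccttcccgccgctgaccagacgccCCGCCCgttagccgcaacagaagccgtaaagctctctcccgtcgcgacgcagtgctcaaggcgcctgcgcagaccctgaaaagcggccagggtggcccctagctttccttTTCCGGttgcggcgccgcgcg
MRPL18 (chr6:160211349-160211523, plus strand): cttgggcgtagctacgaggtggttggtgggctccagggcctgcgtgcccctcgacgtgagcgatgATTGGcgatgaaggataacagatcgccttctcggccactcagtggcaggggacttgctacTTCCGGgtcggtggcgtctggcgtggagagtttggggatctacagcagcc
VARS1 (chr6:31763505-31763679, minus strand): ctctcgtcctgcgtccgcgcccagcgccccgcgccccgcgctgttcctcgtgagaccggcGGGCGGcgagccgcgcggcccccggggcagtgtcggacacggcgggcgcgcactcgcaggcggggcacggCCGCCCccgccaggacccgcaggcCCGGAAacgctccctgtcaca
Splicing, transcription and chromatin, including a cyclic AMP response element at TAF10 and overlapping NRF1 matches at ZNF331:
HNRNPF (chr10:43904610-43904784, minus strand): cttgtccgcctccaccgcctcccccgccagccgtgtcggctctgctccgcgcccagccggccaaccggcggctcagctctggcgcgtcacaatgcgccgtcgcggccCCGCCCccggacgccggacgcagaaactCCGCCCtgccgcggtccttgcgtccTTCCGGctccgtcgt
TAF10 (chr11:6633423-6633597, minus strand): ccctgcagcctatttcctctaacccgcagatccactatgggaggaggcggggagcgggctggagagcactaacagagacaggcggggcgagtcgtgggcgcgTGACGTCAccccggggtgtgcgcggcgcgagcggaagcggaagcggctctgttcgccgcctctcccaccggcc
ZNF331 (chr19:54041249-54041423, plus strand): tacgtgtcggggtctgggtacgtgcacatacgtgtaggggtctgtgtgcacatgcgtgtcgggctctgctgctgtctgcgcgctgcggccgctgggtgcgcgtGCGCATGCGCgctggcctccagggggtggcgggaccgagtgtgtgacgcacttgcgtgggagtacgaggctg
BRD2 (chr6:32936221-32936395, plus strand): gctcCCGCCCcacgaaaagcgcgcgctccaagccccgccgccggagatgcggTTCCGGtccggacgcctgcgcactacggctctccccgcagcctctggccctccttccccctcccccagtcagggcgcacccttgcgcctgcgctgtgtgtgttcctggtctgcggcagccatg
TGFβ signalling, with SP/KLF matches before and after the TSS:
SMAD3 (chr15:67357790-67357964, plus strand): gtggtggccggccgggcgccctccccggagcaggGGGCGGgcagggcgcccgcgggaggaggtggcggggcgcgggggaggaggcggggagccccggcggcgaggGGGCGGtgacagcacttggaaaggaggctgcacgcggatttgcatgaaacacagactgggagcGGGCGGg
A member that also had H3K27me3 in every list:
TTC9B (chr19:40724267-40724441, minus strand): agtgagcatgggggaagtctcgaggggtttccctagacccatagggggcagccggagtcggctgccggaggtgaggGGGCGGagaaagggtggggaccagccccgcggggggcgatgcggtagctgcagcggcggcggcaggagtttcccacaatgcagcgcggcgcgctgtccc

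Over the 300 bases from 250 before to 50 after the canonical TSS, 3805 of 3879 members had a sequence, and their promoters were rich in CpG. The median GC content of members was 65.7% and the median observed over expected CpG ratio was 0.885, beside 63.0% and 0.734 in all other protein-coding genes with a sequence. The promoters that only the shortest H3K27ac list missed were close to members, at 66.7% and 0.874. The 2037 promoters with H3K4me3 in all 6 lists and H3K27ac in none, called never acetylated here, had a higher GC content (69.3%) and a lower CpG ratio (0.786) than members, over 2020 with a sequence.

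Among the motifs, that of ETS factors differed most in percentage points between members and never acetylated promoters. CCGGAA was present in 1431 member promoters (37.6%), in 34.7% of the promoters that only the shortest list missed, in 10.3% of never acetylated promoters and in 22.8% of all promoters with a sequence. AAGATGGC, a match for YY1, was present in 7.99% of members, 6.63% of the promoters that only the shortest list missed and 0.941% of never acetylated promoters, with 4.07% over all. GCATGCGC, the NRF1 match, was present in 7.57% of members and 6.32% of those missed by the shortest list alone, against 2.13% of never acetylated promoters and 4.26% of all. The ZNF143 fragment ACTACAA was present in 4.18%, 4.04%, 1.14% and 2.98% of these 4 classes, the CRE in 3.89%, 3.81%, 1.63% and 2.72%, and the E-box in 11.4%, 10.8%, 6.88% and 8.76%. The members and the promoters that only the shortest list missed were thus close for each of these motifs.

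The remaining motifs did not all differ in the same direction between members and never acetylated promoters. GGGCGG was present in 73.9% of members and in 75.5% of never acetylated promoters, beside 61.8% of all. CCAAT was present in 36.3% of members, 28.8% of never acetylated promoters and 36.0% of all. TATAAA was present in 4.99% of members, 6.73% of never acetylated promoters and 9.57% of all. TGANTCA was present in 3.68%, 3.91% and 5.41% of these classes. No share here carries a test, since promoters are not replicates and many are shared between neighbouring genes.

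Members had more start sites and more close neighbours than protein-coding genes at large. A member had a median of 4 annotated coding start sites against 3 over all protein-coding genes, and windows of 3510 bp in all against 2521 bp, so that more bases could meet a peak. Head-to-head neighbours were counted within 1000 bp upstream of the canonical TSS, or of the outermost TSS where no canonical one was annotated. There, 939 members (24.2%) had the start site of a coding gene on the opposite strand. The share was 19.5% of promoters that only the shortest list missed, 3.14% of never acetylated promoters and 11.8% of all genes. Of these 939 members, 922 had a partner that was a member too, which the overlapping windows largely fix. The 3879 members are therefore not separate promoters in every case. In siControl replicate 1, 5089 distinct H3K4me3 peaks touched them, and in siPHF13+TGFβ replicate 1, 3729 distinct H3K27ac peaks did.

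The size of the set was decided by a single list. The H3K27ac list of siPHF13+TGFβ replicate 1 held 6004 peaks covering 1.89 Mb, while the other 5 H3K27ac lists held 19413 to 36104 peaks covering up to 31.9 Mb. With both lists of that library left out, 9234 genes met the rule, of which the members are 42.0%. Of the genes with every other list, 5344 were missed by that H3K27ac list alone, 38 by the H3K27ac list of siControl replicate 1 alone and 1 by that of siControl+TGFβ replicate 2 alone. The remaining single H3K27ac lists each removed 0 genes, and the H3K4me3 lists together removed 4. Of 3890 genes with H3K27ac in all 6 lists, only 11 lacked H3K4me3 in some list, and VIM, which encodes the mesenchymal filament vimentin, was among them: its H3K4me3 peak was absent in siPHF13+TGFβ replicate 1.

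The short list kept mostly promoters that ranked high in the other lists. The rank was that of the −log10 q, the peak caller's measure of significance, which is larger for more significant peaks. When the genes that were members or were missed by that list alone were ranked by H3K27ac −log10 q within each of the 5 other lists and the ranks averaged, 5.09% of the lowest decile and 92.2% of the highest decile were members, with every decile above the one before it. Just inside the rule, the members with the least significant peak in the short list were CMTM3, at a −log10 q of 1.30, and RETSAT and ELMOD3, which share a promoter at 1.31. Just outside it, KAZALD1, IBA57 and EMC1 had no peak there although KAZALD1 had a −log10 q of 34.8 in siControl replicate 1 and of 215 in siControl+TGFβ replicate 1. The median member had 3.96 in the short list, and 25.5% of members were under 3.

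To locate the marks, the position of the strongest point of each peak (its summit) and the share of members covered by a peak were taken relative to the canonical TSS. Summits were read at 2037 members with a single window. The H3K4me3 summit lay at a median of 403 to 498 bp downstream of the TSS over the 6 libraries, and was downstream at 75.4% to 78.7% of these members. The H3K27ac summit was closer, at a median of 125 bp or less in every library, and fell on both sides: the middle 50% in siControl replicate 1 ran from -328 to 289 bp, and in siPHF13+TGFβ replicate 1 from -339 to 318 bp. The position of the H3K27ac summit was thus alike in the short list and in the others, in contrast to the width.

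Coverage followed the same layout. H3K4me3 covered 71.8% to 83.3% of members at the TSS itself and 91.7% to 96.7% at 250 bp downstream, in the lowest and the highest library. H3K27ac at 250 bp downstream covered 77.4% and 90.1% of members in the siControl libraries and 95.1% and 88.6% in the siControl+TGFβ libraries. In siPHF13+TGFβ it covered 34.7% in replicate 1 and 94.9% in replicate 2. Both marks dipped just upstream of the TSS in all 6 libraries. H3K4me3 reached further downstream than upstream, with 64.7% to 82.1% of members covered at 1000 bp downstream and 29.7% to 44.2% at 1000 bp upstream. H3K27ac covered 2.23% to 39.0% and 3.99% to 32.6% at these distances, and in siPHF13+TGFβ replicate 1 and siControl replicate 1 the downstream share was the lower. H3K27me3 covered 0.184% to 0.710% of members at the TSS.

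**Figure D1:**
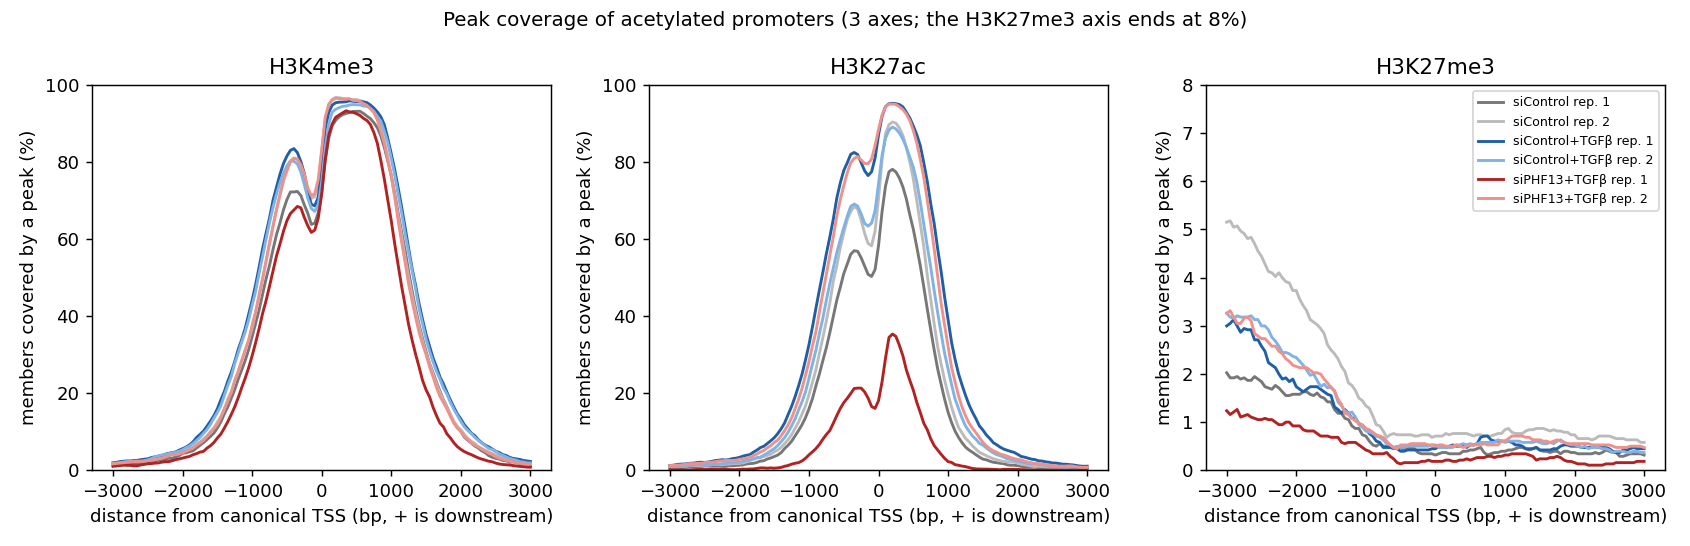
Share of members (%, vertical axes) covered by a peak against the distance from the canonical TSS (bp, horizontal axes) for H3K4me3, H3K27ac and H3K27me3, 1 line per library. H3K4me3 and H3K27ac form a shoulder upstream and a higher plateau downstream, the H3K27ac line of siPHF13+TGFβ replicate 1 lies lowest with a peak of 35.3% at 200 bp, and H3K27me3, on an axis ending at 8%, is higher far upstream, up to 5.18% in siControl replicate 2, than at the TSS and downstream.

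The genes that members serve were described with lists by role, each set beside the 19.3% of all protein-coding genes that were members. Counts given without the short library are to be set beside the 9234 of 20144 protein-coding genes that met the rule without it. Machinery used by every cell was most often present. Of 20 cytosolic aminoacyl-tRNA synthetases, which charge tRNAs with amino acids, 17 were members (85.0%), and the other 3, KARS1, QARS1 and WARS1, were missed by the short list alone. Of 33 proteasome subunits, 27 were members (81.8%), and all 33 were when the short library was left out. Among 22 chaperonins and heat shock proteins, 17 were members (77.3%), again 22 without that library. The spliceosomal and hnRNP proteins gave 51 of 72 (70.8%). Among the genes of that list without H3K27ac in any list were HNRNPCL1 and HNRNPCL2, near-identical copies between which reads may be split, which had H3K27me3 in all 6 lists and H3K4me3 in none.

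Translation and respiration genes were intermediate in the share of members, but mostly not once the short library was left out. The cytosolic ribosomal proteins gave 44 members of 79 (55.7%), with 34 more missed by the short list alone, so that 78 of 79 had both marks in all other lists. RPS4X was the exception, with H3K27ac in 4 lists. The genes named EIF or EEF, mostly translation initiation and elongation factors, gave 36 of 67 (53.7%), the mitochondrial ribosomal proteins 38 of 78 (48.7%), the subunits of RNA polymerase II and its general factors 17 of 39 (43.6%), and the respiratory chain and ATP synthase 36 of 88 (40.9%). Of 26 replication and cell cycle genes, 8 were members (30.8%), among them MCM7, RPA3, CDK1, CDK4, CCNB1, AURKA and AURKB. A further 15 of them were missed by the short list alone. The ZNF-numbered zinc finger genes gave 127 of 508. Without the short library, 73 of 78 mitochondrial ribosomal proteins (93.6%) and 60 of 67 EIF or EEF genes (89.6%) met the rule. So did 36 of 39 RNA polymerase II genes (92.3%) and 77 of 88 respiratory genes (87.5%). The cell cycle genes then gave 23 of 26 (88.5%), the ZNF-numbered genes 332 of 508 (65.4%) and the spliceosomal and hnRNP proteins 65 of 72 (90.3%).

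Peaks at a few members show the range, given as the summed length of all peaks that touch the windows of the gene, with replicate 1 before replicate 2 in each group. At HSPD1, which encodes the mitochondrial chaperonin HSP60, H3K27ac peaks summed to 3241 and 3022 bp (siControl), 4318 and 3766 bp (siControl+TGFβ), and 1223 and 3708 bp (siPHF13+TGFβ). At EEF1A1, the elongation factor that delivers aminoacyl-tRNA, they summed to 2184 and 1916, 2866 and 2586, then 1229 and 2754 bp with libraries ordered alike. Replicate 1 of siPHF13+TGFβ was the narrowest of the 6 libraries at both genes. At PSMD1, a subunit of the proteasome's regulatory particle, the widths were 1241 and 1202, 3189 and 1310, and 277 and 2899 bp, so the replicates of siControl+TGFβ differed as well. HNRNPF, a splicing factor gene, had 4219 to 5355 bp in the other 5 libraries and 205 bp in siPHF13+TGFβ replicate 1. HNRNPL, a relative of it on chromosome 19, had 3196 to 3679 bp and, in that replicate, 1751 bp. HNRNPL lies in the chromosome 19 run described below, whose members had a median of 1123 bp in that replicate, against 309 bp at other members. The drop in width in the short list was thus unequal between these members of a single role, and smaller across that run.

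The lists differed in the width of H3K27ac at their members. The median in siControl+TGFβ replicate 1 was 1595 bp for the 38 mitochondrial ribosomal proteins and 1611 bp for the 27 proteasome subunits, against 2031 bp for the 51 spliceosomal and hnRNP proteins and 2114 bp for the 17 chaperones, beside 1805 bp over all members. In siPHF13+TGFβ replicate 1 the mitochondrial ribosomal proteins were again lowest of these 4 lists, at 225 bp, and the chaperones highest, at 458 bp, beside 311 bp over all members. The H3K4me3 median of these lists in siControl+TGFβ replicate 1 was 2175, 2271, 2782 and 2894 bp in the order given, rising with the H3K27ac width over these 4 lists. Not every list followed. The 6 HOX members had 2119 bp of H3K27ac and 1866 bp of H3K4me3. The 5 epithelial identity members had 1622 and 2865 bp, and the 17 aminoacyl-tRNA synthetases 1863 and 2146 bp.

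**Figure D2:**
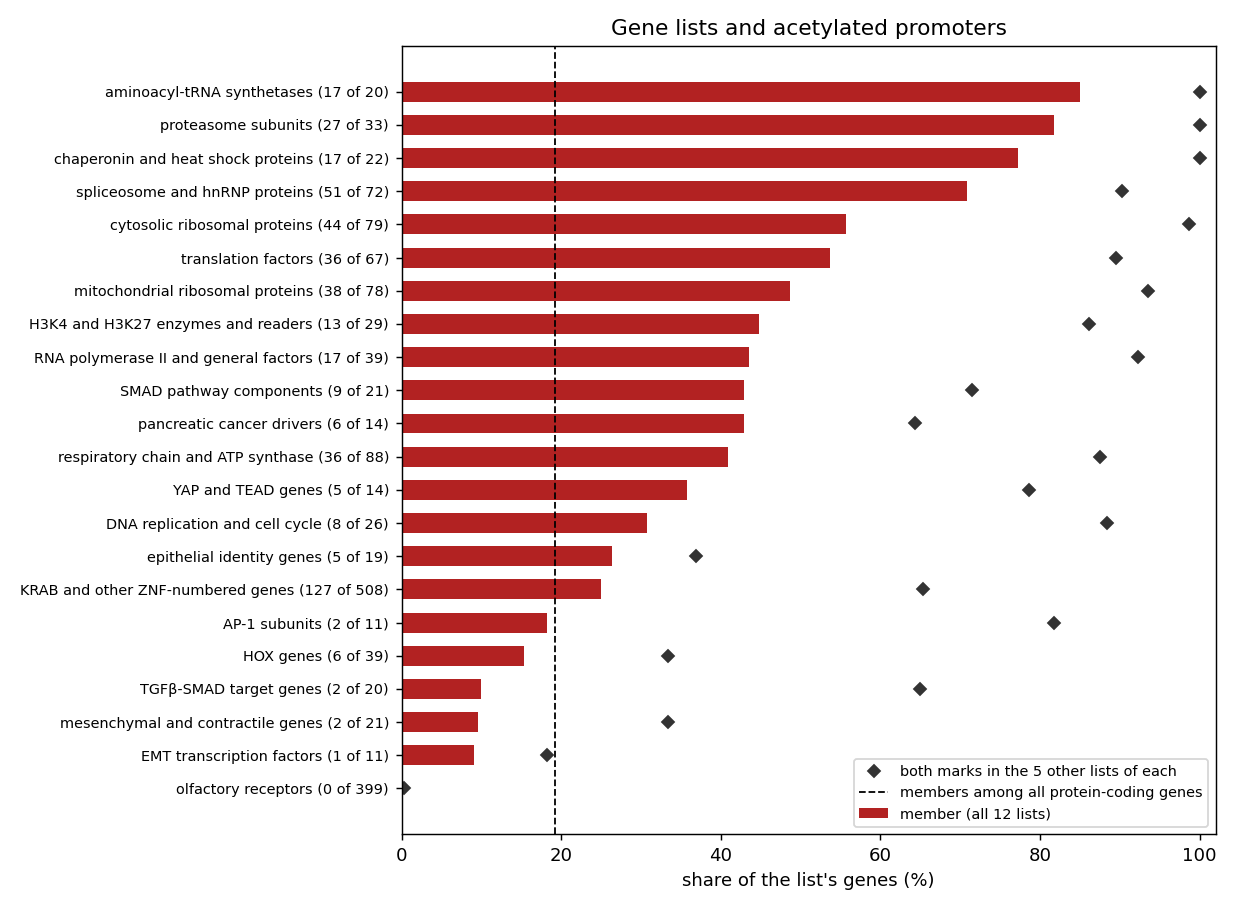
Share (%, horizontal axis) of the genes of each role list that were members (bars, with counts) and that had both marks in the 5 other lists of each modification (diamonds), with the share of members over all protein-coding genes as a dashed line. The bars run from 85.0% of aminoacyl-tRNA synthetases to 0 of 399 olfactory receptors. The dashed line does not apply to the diamonds, whose count over all protein-coding genes is 9234 of 20144.

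Chromatin regulators and signalling genes were less uniform. Of 29 enzymes and readers of H3K4 and H3K27 modifications, 13 were members (44.8%), among them the H3K4 methyltransferases KMT2A, KMT2B, KMT2D and SETD1A, the PRC2 subunits EZH2, SUZ12 and EED, the acetyltransferase EP300 and the acetyl-lysine reader BRD2. PHF13 (chr1:6673791-6684090, plus strand) itself was not a member: its H3K27ac peaks summed to 882 and 1563 bp (siControl), 1852 and 1535 bp (siControl+TGFβ) and 0 and 2271 bp (siPHF13+TGFβ). Unlike these members, its promoter had H3K27ac in 5 of 6 lists, and H3K4me3 in all 6, at 2637 and 3010, 3018 and 3084, and 1702 and 3018 bp.

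Of 21 receptors, SMADs and regulators of TGFβ and BMP signalling, 9 were members (42.9%): TGFBR2, BMPR1A, BMPR2, SMAD2, SMAD3, SMAD6, SKI, SKIL and SMURF1. Only 2 of 20 genes known as TGFβ-SMAD targets were members (10.0%): SKIL, a SMAD corepressor, and ID1, an inhibitor of basic helix-loop-helix factors. Another 11 of these targets, including TGFBI, were missed by the short list alone, so the count without that library was 13 of 20 (65.0%). Over all protein-coding genes the count without that library was 9234 of 20144. At SMAD3 the H3K27ac widths were 1844 and 3416 bp (siControl), 8214 and 3654 bp (siControl+TGFβ), and 290 and 8591 bp (siPHF13+TGFβ). The siControl and siControl+TGFβ libraries did not overlap there and the siPHF13+TGFβ libraries lay below and above both groups, but siControl replicate 2 and siControl+TGFβ replicate 2 lay closer to each other than either did to its own group's replicate 1.

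Among the regulators, BRD2 had 2622 and 2769 bp (siControl), 3271 and 2952 bp (siControl+TGFβ), and 1133 and 3222 bp (siPHF13+TGFβ). KMT2D, an H3K4 methyltransferase acting at enhancers, had 1639 and 1912, 2041 and 1536, then 1019 and 2002 bp. BRD2 was wider in both siControl+TGFβ libraries than in both siControl libraries, as were 65.3% of all members, while the groups overlapped at KMT2D. SKIL, which TGFβ signalling is known to induce, had 1635 and 1791, 2487 and 2131, then 725 and 2514 bp. ID1 had 1412 and 1610, 2018 and 1460, then 411 and 2996 bp. The siControl and siControl+TGFβ libraries did not overlap at SKIL and overlapped at ID1.

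In the share of members, lists of cell state genes ranged from below to above the share over all genes, but their order depended on the short library. From 11 transcription factors of epithelial-to-mesenchymal transition, only ZEB1 was a member (9.09%), with H3K27ac widths of 1378 and 1807 bp (siControl), 2434 and 1659 bp (siControl+TGFβ), and 183 and 2262 bp (siPHF13+TGFβ). Its paralog ZEB2 had no H3K27ac peak, and H3K27me3 in all 6 lists. From 21 mesenchymal and contractile genes, TPM2 and ITGA2 were members (9.52%), and from 19 epithelial identity genes KRT8, KRT18, CLDN4, ESRP2 and EPCAM were (26.3%). CDH1, which encodes E-cadherin, had H3K4me3 in all 6 lists, H3K27ac in 0 and H3K27me3 in 5. Of 11 AP-1 subunits, JUN and FOSL1 were members (18.2%), with 9 of 11 once the short library was left out. The YAP and TEAD list gave 5 of 14 (35.7%): YAP1, WWTR1, TEAD4, LATS1 and LATS2. YAP1, a coactivator of TEAD factors, had H3K27ac of 2690 and 2761, 3217 and 3099, then 543 and 2973 bp, and JUN 1347 and 2543, 3522 and 2402, then 331 and 2759 bp. KRT8, a keratin of simple epithelia, had 3538 and 3601, 5729 and 4693, then 486 and 4929 bp. At YAP1 and KRT8 both siControl+TGFβ libraries were above both siControl libraries, at JUN they were not, beside the 65.3% of all members with such a separation. From 14 genes recurrently mutated in pancreatic cancer, 6 were members (42.9%), among them ARID1A, TGFBR2, GNAS, SF3B1 and RBM10. Of 39 HOX genes, which pattern the body axis, 6 were members (15.4%), mostly of the HOXB cluster. Without the short library, 2 of 11 transition factors, 7 of 21 mesenchymal genes, 7 of 19 epithelial identity genes and 13 of 39 HOX genes met the rule. The YAP and TEAD list then gave 11 of 14 and the pancreatic cancer list 9 of 14, beside 9234 of 20144 protein-coding genes. The epithelial identity list thus lay above the share over all genes with that library and below it without.

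The labelled cell type was checked against markers. Of 6 markers of pancreatic ductal cells, KRT8, KRT18 and EPCAM were members, SOX9 was missed by the short list alone, KRT19 had H3K27ac in 4 lists and KRT7 had no peak of H3K4me3 or H3K27ac. None of 6 acinar, 5 endocrine, 5 blood, 4 neuronal and 4 hepatocyte markers was a member, nor was any of 399 olfactory receptors. None of 5 fibroblast and mesenchymal markers was a member either, but 2 of them (40%) met the rule without the short library. VIM, a marker of that list, had H3K27ac in all 6 lists. The genes PRSS1, INS, PTPRC, HBB and ALB, picked from the acinar, endocrine, blood and hepatocyte markers, had 0 lists with H3K27ac. Every marker of these 4 cell types lacked H3K4me3 in some list. Of the 4 neuronal markers, however, 2 had H3K4me3 in all 6 lists and H3K27ac in some but not all.

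The members with the most significant H3K27ac peaks lay together on a single chromosome arm. When members were ranked by H3K27ac −log10 q within each list and the ranks averaged, 9 of the 10 highest and 22 of the 25 highest were located between 39109522 and 40791443 of chromosome 19 (hg19), from the start site of MAP4K1 to that of AKT2. These included PAF1 and MED29, which share a promoter and encode subunits of the PAF1 elongation complex and of Mediator, AKT2, a kinase gene amplified in a share of pancreatic cancers, SUPT5H, an elongation factor, and RPS16 and PSMC4, whose promoters are printed above. At PAF1 the −log10 q was 251 and 498 (siControl), 1370 and 368 (siControl+TGFβ), and 64.6 and 1331 (siPHF13+TGFβ), the highest of all members in the short list. Their peaks kept their width there, with 1469 bp in siPHF13+TGFβ replicate 1 against 1590 to 1891 bp in the other 5 libraries.

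The boundaries of this stretch of 1.68 Mb were placed after the values were seen, as the run without a gap of chromosome 19 members with a mean rank of at least 90. It held 58 protein-coding genes, of which 33 were members (56.9%) and 1, ACP7, was missed by the short list alone. The 33 members had mean ranks of 91.3 or higher with a median of 99.4. The next member on one side, PSMD8, ranked at 73.7 and the next on the other side, SERTAD1, at 26.8. In the adjoining 2 Mb on each side, 10 of 40 genes and 11 of 65 genes were members, with median ranks of 50.1 and 42.9. Of the members elsewhere, 4.68% had a rank of at least 90.

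Significance and fold enrichment of the peaks did not go together in this run. The median −log10 q of H3K27ac was 53.5 and 124 (siControl), 312 and 94.8 (siControl+TGFβ), and 14.7 and 329 (siPHF13+TGFβ), which was 3.74 to 5.56 times that of other members in the same library. Fold enrichment over the control was only 1.04 to 1.16 times that of other members, and peak width 1.04 to 1.36 times except in the short list, where 1123 bp against 309 bp gave 3.63 times. The same held for H3K4me3, which did not enter the ranking, with a −log10 q of 10.2 to 12.3 times, a fold enrichment of 1.09 to 1.21 times and a width of 0.957 to 1.12 times that of other members. The higher −log10 q was seen in all 6 libraries of each mark. For H3K27ac this was largely built in, because the run was chosen on these 6 lists. Only the H3K4me3 values lay outside the choice of the run. Among its 33 members, 5 had an H3K27me3 peak in some list.

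**Figure D3:**
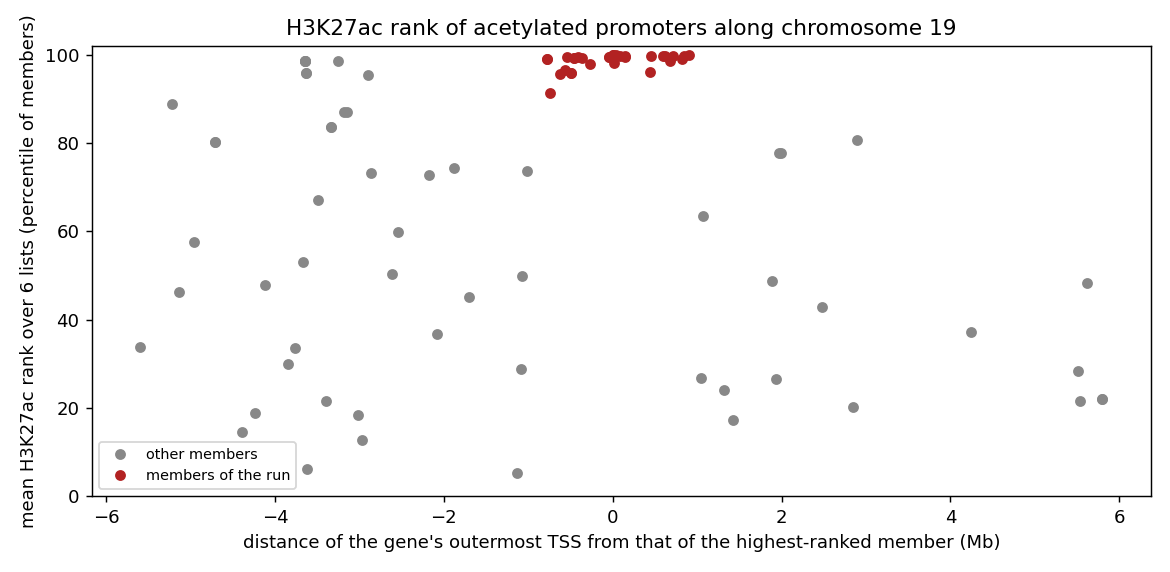
Mean H3K27ac rank over the 6 lists (percentile among members, vertical axis) against the distance in Mb from the start site of PAF1 or MED29, the highest-ranked members, for members of chromosome 19 within 6 Mb. The 33 members of the run (red) sit at 91.3 or higher, while the other members (grey) are scattered over the whole scale.

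Membership also varied across chromosomes. On chromosome 4, 82 of 761 genes were members (10.8%), on chromosome X 11.6%, on chromosome 21 28 of 229 (12.2%) and on chromosome 9 98 of 799 (12.3%). On chromosomes 7 and 6 the shares were 24.9% and 24.7%. Presence of H3K4me3 in all 6 lists was lowest on chromosomes X and 21, at 54.9% and 56.8%, but did not separate the others named, with 69.4% of genes on chromosome 4, 69.7% on chromosome 9, 69.5% on chromosome 7 and 71.1% on chromosome 6. Of genes that were members or missed by the short list alone, 29.6% were members on chromosome 4 and 29.3% on chromosome 9, against 53.2% on chromosome 11 and 51.0% on chromosome 7.

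The widest H3K27ac at members belonged to SEPTIN9, which encodes a cytoskeletal septin, with 5345 and 7076 bp (siControl), 15429 and 6094 bp (siControl+TGFβ), and 181 and 15703 bp (siPHF13+TGFβ). DST and VGLL4 followed by mean width, then ARID1B, a subunit of the BAF chromatin remodeller, ANKRD11, ABCB9, RERE, SEMA4B, SQSTM1 and SMAD3. Over all members the mean H3K27ac width across libraries ranged from 471 to 8305 bp with a median of 1305 bp, and that of H3K4me3 from 491 to 10910 bp with a median of 2210 bp. Width entered the rule only through the presence of a peak, so its differences between groups are given as a description.

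To describe the marks of members by condition, the width at each member was compared between libraries. The median H3K27ac width was 1127 and 1351 bp (siControl, mean 1239 ± 158, SD, n = 2), 1805 and 1467 bp (siControl+TGFβ, 1636 ± 239), and 311 and 1677 bp (siPHF13+TGFβ, 994 ± 966). Both siControl+TGFβ libraries were above both siControl libraries, and 65.3% of members were wider in all 4 pairings of a siControl+TGFβ with a siControl library, with 0 narrower in all 4. The median log2 difference of siControl+TGFβ from siControl was 0.40, and it ran from 0.11 to 0.67 over the 4 pairings. At the promoters that only the short list missed, the library medians averaged 812.5 ± 260 bp (siControl, SD, n = 2) and 1282 ± 345 bp (siControl+TGFβ, n = 2), so wider H3K27ac is not particular to members. The list lengths moved with it: the siControl H3K27ac lists held 19413 and 25929 peaks and those of siControl+TGFβ 36104 and 27110. With only the strongest 6004 H3K27ac peaks of every list, the median difference was 0.33 over the 2311 members that kept a peak in all 6.

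**Figure D4:**
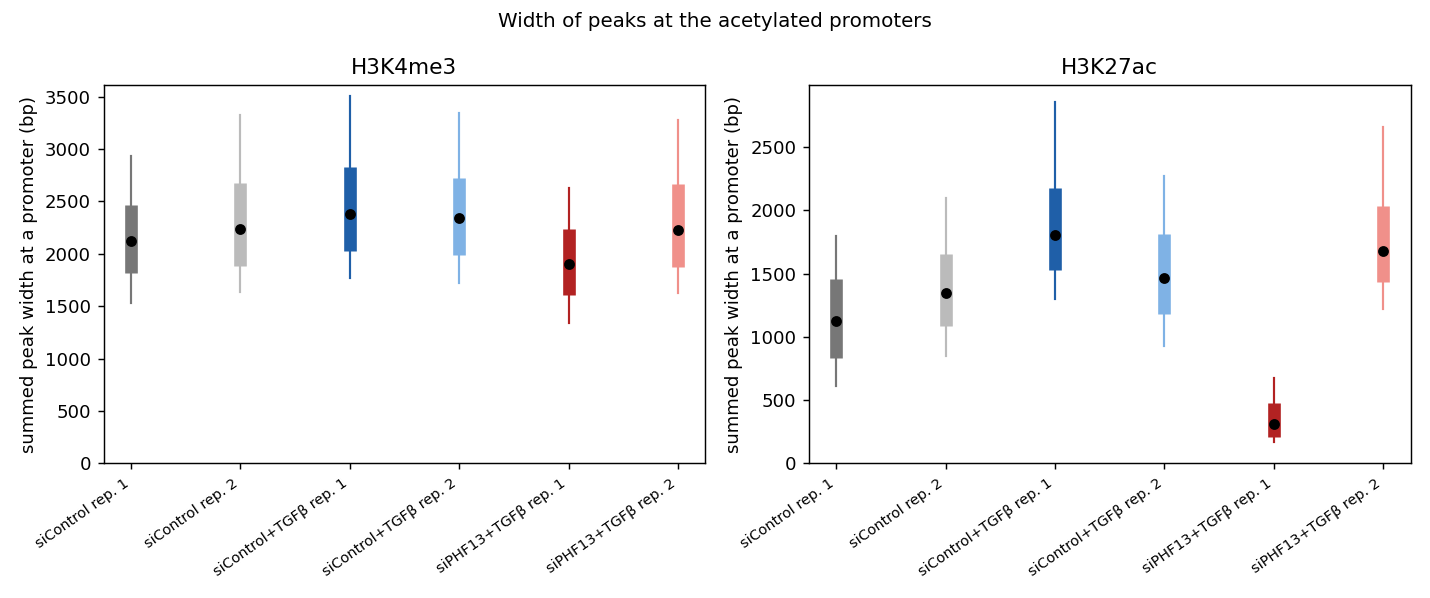
Summed peak width (bp, vertical axes) at the 3879 members for H3K4me3 and H3K27ac in each library. Points are medians, thick bars the middle 50% and thin lines the middle 80% of members, and the H3K27ac median of siPHF13+TGFβ replicate 1 (311 bp) lies below those of the 5 other libraries (1127 to 1805 bp).

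Between siPHF13+TGFβ and siControl+TGFβ, the replicates of the depleted cells pointed in different directions. The median log2 difference in H3K27ac width was -1.14 over both libraries, -2.36 with replicate 1 alone and 0.05 with replicate 2 alone. Against siControl+TGFβ replicate 1, 74.3% of members were narrower in siPHF13+TGFβ replicate 2, but against siControl+TGFβ replicate 2 only 17.3% were. The H3K27ac difference at members therefore was smaller than the spread between the replicates, and it rests on the library with the short list.

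H3K4me3 widths moved less. The medians were 2125 and 2234 bp (siControl, 2180 ± 77.1, SD, n = 2), 2379 and 2339 bp (siControl+TGFβ, 2359 ± 28.3) and 1902 and 2225 bp (siPHF13+TGFβ, 2064 ± 228). In siControl+TGFβ, H3K4me3 was wider in all 4 pairings at 52.7% of members and narrower at 1.68%, with a median log2 difference of 0.11. At the promoters that only the short H3K27ac list missed, these values were 49.3%, 2.43% and 0.11, so this difference is not particular to members. In siPHF13+TGFβ, H3K4me3 was narrower than in siControl+TGFβ in all 4 pairings at 66.3% of members and wider at 0.309%, with a median of -0.19. Of the promoters that only the short H3K27ac list missed, 62.8% were narrower and 0.449% wider in all 4 pairings. Without siPHF13+TGFβ replicate 1 the median at members was -0.08. The promoters that only the short H3K27ac list missed gave -0.20 over both libraries, so this H3K4me3 difference is not particular to members either. The H3K4me3 lists of siPHF13+TGFβ held 27869 and 33491 peaks and those of siControl+TGFβ 39202 and 36308.

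H3K27me3 was not itself used by the rule, so its share was compared between classes and between groups. The classes were set by H3K27ac, however, and a single lysine cannot carry both marks. A lower H3K27me3 share at members than at never acetylated promoters was therefore largely built in. The same genes were compared in every library, so the p-values between classes show only that the direction recurred across libraries. An H3K27me3 peak overlapped the windows of 2.58% and 4.02% of members in siControl (3.30% ± 1.02, SD, n = 2), 3.04% and 3.09% (siControl+TGFβ, 3.07% ± 0.0365) and 1.73% and 2.84% (siPHF13+TGFβ, 2.28% ± 0.784). Never acetylated promoters had it in 78.4% and 87.8%, 84.0% and 83.9%, then 65.4% and 83.6%, with libraries ordered alike. Members were lower in 6 of 6 libraries, by 77.6 percentage points ± 7.30 (SD of the 6 differences), with p = 0.03125 in an exact two-sided sign-flip permutation test over libraries (adjusted over 2 such comparisons, 0.03125), the smallest value that 6 libraries allow. With H3K27me3 peaks limited to a −log10 q of at least 3, the difference was -13.7 points, with the same exact permutation p of 0.03125. Promoters that only the short list missed had H3K27me3 in 2.56% to 6.83%, and members were lower in 6 of 6 libraries by 1.87 percentage points ± 0.689 (exact permutation p = 0.03125, adjusted 0.03125). The share of all protein-coding genes with H3K27me3 was 15.4% to 30.2%.

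**Figure D5:**
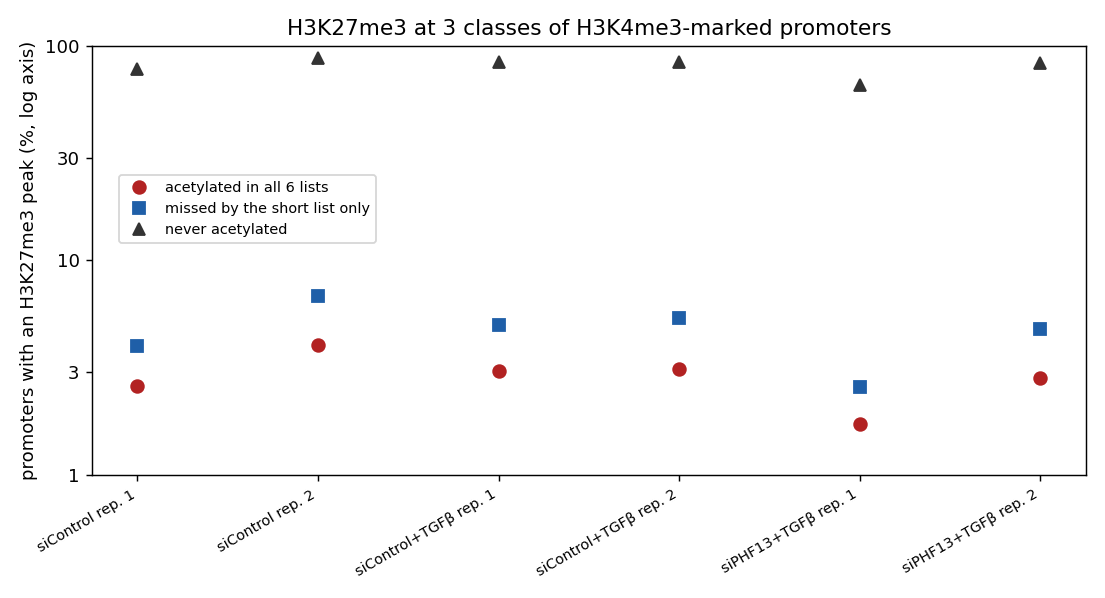
Share of promoters with an H3K27me3 peak (%, log axis) in each of the 6 libraries for members (red circles), promoters that only the short H3K27ac list missed (blue squares) and never acetylated promoters (black triangles). Members are lowest in every library, at 1.73% to 4.02%, and never acetylated promoters highest, at 65.4% to 87.8%.

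Between groups, 2 libraries against 2 could not pass a threshold of 0.05. The difference of siControl+TGFβ from siControl was -0.232 percentage points, with 2 of 4 pairings higher (exact permutation p = 1). The difference of siPHF13+TGFβ from siControl+TGFβ was -0.786 points, lower in 4 of 4 pairings, with an exact permutation p of 0.333, the smallest that 2 libraries against 2 can give. Most of this difference rests on siPHF13+TGFβ replicate 1, since without it the difference was -0.232 points. That library also had the shortest H3K27me3 list, with 59573 peaks against 98211 to 165717 in the others.

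Per gene, the length of the windows covered by H3K27me3 was tested with limma over 5697 protein-coding genes with a peak in at least 2 of the 6 libraries, of which 141 were members, so that 3738 members were outside the test for lack of H3K27me3. At a threshold of 0.05 on the p-value adjusted by Benjamini and Hochberg, limma called 0 genes (0%) for TGFβ and 0 (0%) for PHF13 depletion, members included. At an unadjusted p under 0.05, 3 of the 141 members had more and 6 had less coverage in siControl+TGFβ. Of all 5697 genes tested, 55 (0.965%) had more and 97 (1.7%) had less. In siPHF13+TGFβ, 3 of the 141 members had more and 7 had less, beside 14 (0.246%) and 162 (2.84%) of all 5697 genes tested. The median log2 difference in siPHF13+TGFβ was -0.55 over these members and -0.64 over all genes tested, on the log2 scale of base pairs plus 200. When siPHF13+TGFβ replicate 2 was left out, 213 genes (3.82%) were called as less covered, with 4 members among them.

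Most members had no H3K27me3 at any time. Of 3879, 3688 (95.1%) lacked it in all 6 lists, 50 had it in a single list and 50 in all 6, whereas 1288 of 2037 never acetylated promoters (63.2%) had it in all 6. Of the 50 members with all 3 marks in every list, 44 had more than 1 separate window (88.0%), beside 45.7% of all members, and in 46 no base lay under an H3K27ac and an H3K27me3 peak of the same group and replicate number. The marks at these genes thus lay mostly at different start sites or different bases. GNAS (chr20:57414773-57486247, plus strand), an imprinted gene with several promoters, had H3K27me3 over 4904 and 5608 bp of its windows (siControl), 5608 and 5608 bp (siControl+TGFβ), and 4810 and 5608 bp (siPHF13+TGFβ), with 0 bp shared with H3K27ac.

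Others of the 10 with the most H3K27me3 were ARHGAP9, ROBO3, TPM3, PRKAG2, FBXO15, PSD, FEZ1 and GATM, each with at least 2 windows. MUC3A (chr7:100547187-100611118, plus strand), a membrane mucin gene with tandem repeats, was the exception: its single window was covered by H3K27me3 over 3637 bp in all 6 libraries, its H3K27ac peaks of 312 to 579 bp lay wholly within that stretch, and it was the only one of the 50 with shared bases in every library. At EPCAM (chr2:47572297-47614740, plus strand), an epithelial adhesion gene, H3K27ac peaks summed to 422 and 903 bp (siControl), 1415 and 1280 bp (siControl+TGFβ), and 252 and 1379 bp (siPHF13+TGFβ), while H3K27me3 covered 72 and 650, 1793 and 1663, and 76 and 1128 bp. Both marks were higher in both siControl+TGFβ libraries than in both siControl libraries, without shared bases. TTC9B, in the run on chromosome 19 and among the 10 members with the highest H3K27ac rank, had H3K27me3 over 899 to 1553 bp in every library. Its H3K27ac peaks were 1312 to 1891 bp wide, but only 228 bp of them on average lay inside its window, and no base was shared with H3K27me3.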

How the data were processed

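The authors' ChIP-seq libraries of PANC-1 cells (2 per group and modification, 18 in all) were used as deposited peak lists; the 6 inputs were not analysed here. According to the study's methods and the submitters' processing notes, reads were trimmed (Trim Galore 0.4.1), aligned to hg19 (Bowtie2 2.4.1), cleared of duplicates (Picard), called against input with MACS2 2.2.7.1 in each library and processed with deepTools 3.5.0. Each deposited peak carries the score, the fold enrichment (a ratio over control), and the −log10 p-value and −log10 q-value that the authors' peak caller gave. The authors deposited narrow peaks for H3K4me3 and H3K27ac, whose summit offset is a further deposited column, and broad peaks for H3K27me3. The lowest −log10 q of the narrow lists was 1.30, below the threshold that the methods state. For siPHF13+TGFβ replicate 1 the study lists more peaks than the deposited lists hold, although peak numbers ran with 0 missing. Depth is unknown from peak lists, and a better enriched library gives more and wider peaks.

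Windows of 1000 bp on each side of every coding TSS (GENCODE release 44 in its GRCh37 version) were overlapped with peaks (at least 1 bp) in Python 3.11.15 with NumPy 2.4.6; the overlap code was checked on simulated intervals. Covered base pairs were tested with limma 3.58.1 in R 4.3.3 on log2(bp + 200), 3 groups in a single fit without a block, and the test was checked on simulated data. Shares were compared by exact permutation of libraries. Sequences are GRCh37. Genes named were the 10 members with the widest H3K27ac, the 10 ranked highest by its −log10 q, the 10 with most H3K27me3, those at the edge of the rule, up to 4 members and 4 other genes of each list, and PHF13, leaving out chromosome 8; other genes, the chromosome 19 run and its neighbours were named after their values were seen. Members and lists were chosen with earlier results of these data known. Some genes and sequences named by the rule are not reported here.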

Additional observations from a re-analysis of the deposited data

How the results depend on the processing

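The number of members was 2872 to 3986 under narrower or wider windows, other start sites, a −log10 q of at least 3 or a larger overlap, but 1849 when only the strongest 50% of peaks of each list were kept. Leaving out 1 library of both marks gave 3879 to 9234 members, the highest without siPHF13+TGFβ replicate 1. The H3K27me3 share at members differed with TGFβ by 0 points when peaks were limited to a −log10 q of at least 3, and by -0.954 to 0.490 points when single libraries were left out, the positive value being that without siControl replicate 2. With depletion, leaving out single libraries gave -1.34 to -0.232 points. Windows of 5 kb for H3K27me3 gave -1.21 points with TGFβ and -3.33 with depletion, and the −log10 q limit gave -0.103 with depletion. Against never acetylated promoters, the limit gave -13.7 points and leaving out a library -80.4 to -76.4 points, and against promoters missed by the short list -2.08 to -1.68 points, each with an exact permutation p of 0.0625, the smallest that 5 libraries allow. The latter was -0.172 points (exact permutation p = 0.09375) at a −log10 q of at least 3; the cause was not tested. The H3K4me3 width difference with TGFβ was 0.067 (log2) when only bases inside the windows were counted. Leaving out a library, the H3K4me3 width difference was 0.08 to 0.13 with TGFβ and -0.29 to -0.08 with depletion, and that of H3K27ac was 0.25 to 0.56 and -2.36 to 0.052, the last without siPHF13+TGFβ replicate 1.

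Without the filter on H3K27me3, limma called 10 genes for TGFβ and 6 for depletion, of 20144. Leaving out a library gave 0 to 0 calls for TGFβ and 0 to 213 for depletion, where a lone library is assumed to vary like the other groups. Centring each library on its median moved the median of all genes for depletion from -0.64 to 0.42. Same-numbered H3K27me3 libraries did not deviate together gene by gene (correlations of -0.04, 0.17 and 0.00 between groups). A correlation over genes cannot see a shift of a whole library, and the other marks were not examined, so a shared replicate effect was not excluded. With the replicate block, limma called 0 genes for either comparison. The differences in H3K27me3 share (-0.232 and -0.786 points) and H3K27ac width (0.40 and -1.14) were the same with the block as without. Each replicate number occurs once per group, so the block cannot change them, and they say nothing about a shared replicate effect.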
